A study of Oryza sativa with 6 samples.

Results

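Most regions acetylated at histone H3 lysine 9 (H3K9ac) in control rice leaves were also called in leaves infested by the fall armyworm, and 246 were missing from the peak lists of an infested time. The regions were chosen from the calls themselves. Intervals of the 6 deposited peak lists that overlapped by at least 1 bp on the 12 nuclear chromosomes gave 17468 regions after merging, and both control lists held 3208 of these. A member was called in both control lists and missing from both lists of 3 h, from both lists of 12 h, or from all 4 infested lists. Its counts and folds are therefore a description and carry no test.

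The leaves came from rice (Oryza sativa) seedlings 20 days old, with no cultivar named in the labels. Control plants were uninfested, and the other plants had carried Spodoptera frugiperda for 12 h or for 3 h. There were 2 libraries in each of the 3 groups, made from leaf nuclei by CUT&Tag with an antibody against H3K9ac; the series design names whole seedlings where the sample labels name leaf. Nothing says that the 2 libraries of a group came from separate plants, so any spread between them may be technical. Read totals were not analysed here, and fewer cells carrying the mark cannot be told apart from less of it in each cell.

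H3K9ac is acetylation of lysine 9 on the tail of histone H3. It is placed by acetyltransferases and removed by deacetylases, and in plants it lies mainly at the start of transcribed genes. Stress can move it within hours, in either direction. Feeding caterpillars set off wound and jasmonate signalling in leaves, and growth and photosynthesis genes are often turned down at the same time. A genome sequence and gene positions of the build used here, IRGSP-1.0, were not used, so regions are given by position and no gene or base sequence is assigned to them.

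The members fell into 3 clear patterns and 2 intermediate ones. Early transient loss, a call missing from both 3 h lists and present in both 12 h lists, held 28 regions. Late loss, present in both 3 h lists and missing from both 12 h lists, held 105. Lasting loss, missing from all 4 infested lists, held 46. Another 20 regions were missing at 3 h and called in 1 of the 12 h lists, and 47 were missing at 12 h and called in 1 of the 3 h lists. In all, 94 regions were missing at 3 h, which is 2.93% of the control regions, and 198 were missing at 12 h, which is 6.17%. The share missing from all 4 lists was 1.43% and the share missing at either time was 7.67%. The rule fixes these shares, and nothing about the members is read from them. The infested lists were longer than the control lists, with 11738 to 14010 peaks against 5150 and 5644. With all lists shortened to equal length, 918 of 3020 control regions were members (30.4%), with 107 early transient and 325 lasting regions.

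The counts rested on having 2 lists for each group. Asking for a call in only 1 control list gave 748 members of 5079 control regions (14.7%) without control replicate 1 and 725 of 4565 (15.9%) without control replicate 2. Early transient loss rose to 74 and 45 in those settings, and to 55 and 118 without 3 h replicates 1 and 2. Late loss was 179 without control replicate 1, which was 3.52% of the control regions against 3.27% with every library, and 187 and 164 without 12 h replicates 1 and 2. Lasting loss rose to 287 when control replicate 1 was left out, to 331 when control replicate 2 was, and to 70 without 3 h replicate 2. Fewer lists have to agree in each of these settings.

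A region just outside the rule was called in 1 of the 2 lists of a time. At 3 h there were 211 such control regions, 68 of them in replicate 1 and 143 in replicate 2, with a median infested fold of 3.42 and a median −log10 q of 3.79. At 12 h there were 209, with a median infested fold of 3.70 and a median −log10 q of 3.49. Their median control folds were 3.48 and 3.61 for the 3 h set and 3.53 and 3.66 for the 12 h set. Just inside the rule, the 94 regions missing at 3 h had median control folds of 3.51 and 3.62, and the 198 missing at 12 h had 3.57 and 3.69. Members and near-members thus had similar control peaks, and both were weaker than the 2903 regions called in both 3 h lists, with medians of 3.84 and 4.02.

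The fold used throughout is the authors' enrichment of a peak's summit over the local background of its own library, with 1 added to both. This makes fold smaller than the plain ratio of coverage to background, most of all where the background is low. Fold and −log10 p together gave the summit coverage as a whole number of fragments, together with the local background. In control replicates 1 and 2 the lowest background of the list, taken as the genome background, was 2.43 and 2.004 fragments. It was 2.13 and 2.32 at 3 h and 1.49 and 1.43 at 12 h, the lowest of the 3 groups. At that background the lowest coverage called was 9 and 8 fragments in control, 8 in both 3 h libraries and 6 in both 12 h libraries.

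**Figure D1:**
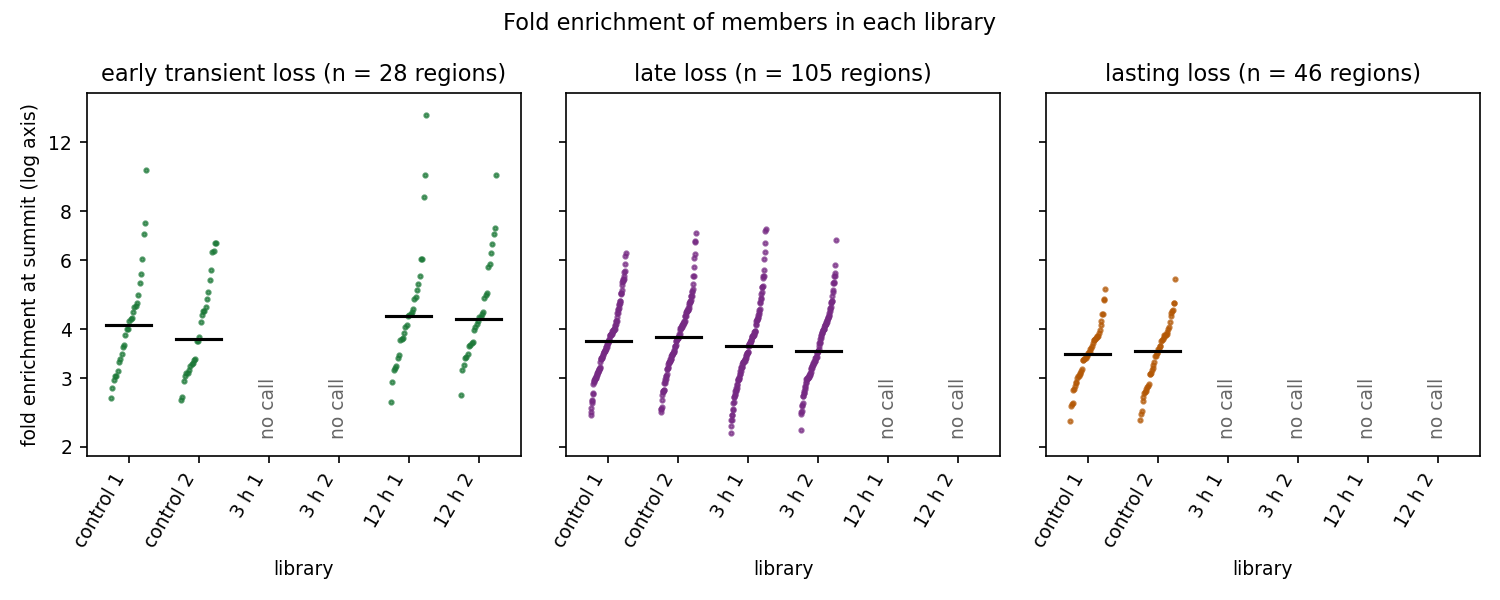
Fold enrichment at the summit (log axis) of every region of early transient, late and lasting loss in each of the 6 libraries; points are regions and black bars are medians. Early transient regions spanned 2.64 to 10.2 in control and reached 14.1 at 12 h, while no lasting region passed 5.37 in either control library.

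Early transient loss held the member with the highest control fold. Over the 28 regions the fold in control replicate 1 had a lowest value of 2.67, a median of 4.10 and a highest value of 10.2, and in control replicate 2 the values were 2.64, 3.78 and 6.66. At 12 h the same regions had medians of 4.33 and 4.25, with highest values of 14.1 and 9.90. The control and 12 h ranges overlapped widely. Ordered by the lower of the 2 control folds, the 4 quartiles of control regions held 9, 6, 1 and 12 of the 28, from weakest to strongest. The class median of that fold was 3.36, below the 3.56 of all control regions.

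At 12 h these peaks were called in the same merged region as in control, as the rule requires. The mean 12 h summit lay a median of 114.5 bp from the mean control summit, against 99.5 bp over the 2657 regions called in all 6 lists. Fold at 12 h was higher than in control, on the mean of log2 values, at 21 of 28 regions, and the median difference was 0.11. Over the regions called in all 6 lists 80.5% were higher, with a median difference of 0.26. Called width was 1.04 times the control width in the early transient regions and 1.24 times in the regions called in all lists. Coverage over genome background was higher in both 12 h libraries than in both controls at 22 of 28 early transient regions (78.6%), against a background of 79.5% among the regions called in all 6 lists. It was lower in both at 4 (14.3%), against 3.76%. A call at 12 h was part of the choice of these regions, so the shares are given without a test.

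The region with the highest control fold was chr4:9132954-9133590. Its summit coverage was 34 and 19 fragments in the control libraries and 34 and 24 at 12 h, with folds of 10.2 and 6.66 and then 14.1 and 9.90. Neither 3 h list called it. At the control's relative background, a coverage of at most 7 fragments would have gone uncalled in either 3 h library, which is 28.1% of the control coverage scaled to the 3 h background.

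Further along the same chromosome, the fold at chr4:9156147-9156704 was 5.24 and 6.32 in control and reached 6.03 and 6.59 at 12 h. Its coverage was 17 and 18 fragments in control and 14 and 15 at 12 h, and the highest uncalled coverage at 3 h was 41.3% of the scaled control. Scaled to the lower background of the 12 h libraries, its mean control coverage was 11.9 and 11.4 fragments, below the coverage found there. Its 2 groups of folds overlapped. Elsewhere on chromosome 4, chr4:32884955-32885525 was covered by 28 and 22 fragments in control and by 12 and 9 at 12 h, where the scaled control was 16.7 and 16.1. It sat on a higher local background than the other leading regions, 2.15 and 1.81 times the genome background in control. The last of the leading regions here, chr4:14056352-14057033, had folds of 4.56 and 4.54 in control and of 5.46 and 5.87 at 12 h, so both 12 h folds were above both control folds.

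On chromosome 12 a group of 3 early transient regions lay within a stretch shared with 8 kept control regions. At chr12:20498888-20499832 coverage was 23 and 19 fragments in control and 12 and 9 at 12 h, where the scaled control was 14.1 and 13.5. The fold was below both control folds in each 12 h library. At chr12:20520893-20521573 the folds were 5.54 and 5.66 in control and 4.42 and 4.94 at 12 h, again lower in both 12 h libraries. Its coverage at 12 h was 10 and 11 fragments, close to the mean control coverage scaled to those libraries, 11.4 and 11.0. At chr12:20651506-20652431 they were 6.03 and 5.33 in control and 6.03 and 5.76 at 12 h, which overlap. All 3 stood on a local background within 1.09 times the genome background in the control libraries.

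Kept regions beside them were also partly uncalled at 3 h. At chr12:20638623-20639302 the fold was 9.82 and 7.99 in control, 5.43 in 3 h replicate 2 and 9.24 in 12 h replicate 1, and the remaining 2 lists did not call it. At chr12:20660997-20661736 it was 6.70 and 8.32 in control, 4.22 in 3 h replicate 2, and 6.83 and 6.18 at 12 h. The other kept regions of the stretch did not share one direction. Both 3 h folds lay below both control folds at chr12:20528119-20528959, chr12:20533845-20535544 and chr12:20626730-20627560. They lay above both at chr12:20332987-20333963 and chr12:20542094-20543602, and overlapped at chr12:20620804-20621960. At chr12:20542094-20543602 the fold was 5.19 and 4.16 in control and 5.51 and 7.80 at 3 h. Its local background was 3.24 and 2.86 times the genome background in control and 1.58 and 1.34 at 3 h. Its coverage was 45 and 27 fragments in control and 23 and 31 at 3 h. These neighbours were chosen for description after their values were seen.

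On chromosome 2 a pair of early transient regions lay 5221 bp apart. At chr2:14247161-14247732 the fold was 4.90 and 4.16 in control and 8.73 and 6.99 at 12 h, so both 12 h libraries were above both controls. At chr2:14252954-14253430 it was 7.46 and 6.29 in control and 9.89 and 7.25 at 12 h, and the groups overlapped. Strong kept peaks stood near this pair. At chr2:14284778-14285445 the fold was 13.3 and 10.7 in control, 5.43 in 3 h replicate 2, and 9.37 and 9.97 at 12 h, while 3 h replicate 1 did not call it. At chr2:14277670-14278265 it was 10.8 and 8.99 in control, 5.13 in 3 h replicate 2, and 9.24 and 9.88 at 12 h, and 3 h replicate 1 again lacked a call. The other kept regions near the pair did not share this pattern. At chr2:14243836-14244337 the call was present in 3 h replicate 1, with a fold below both control folds. That region was missing from 3 h replicate 2 and from 12 h replicate 2. At chr2:14360960-14362307 both 3 h folds lay above both control folds.

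**Figure D2:**
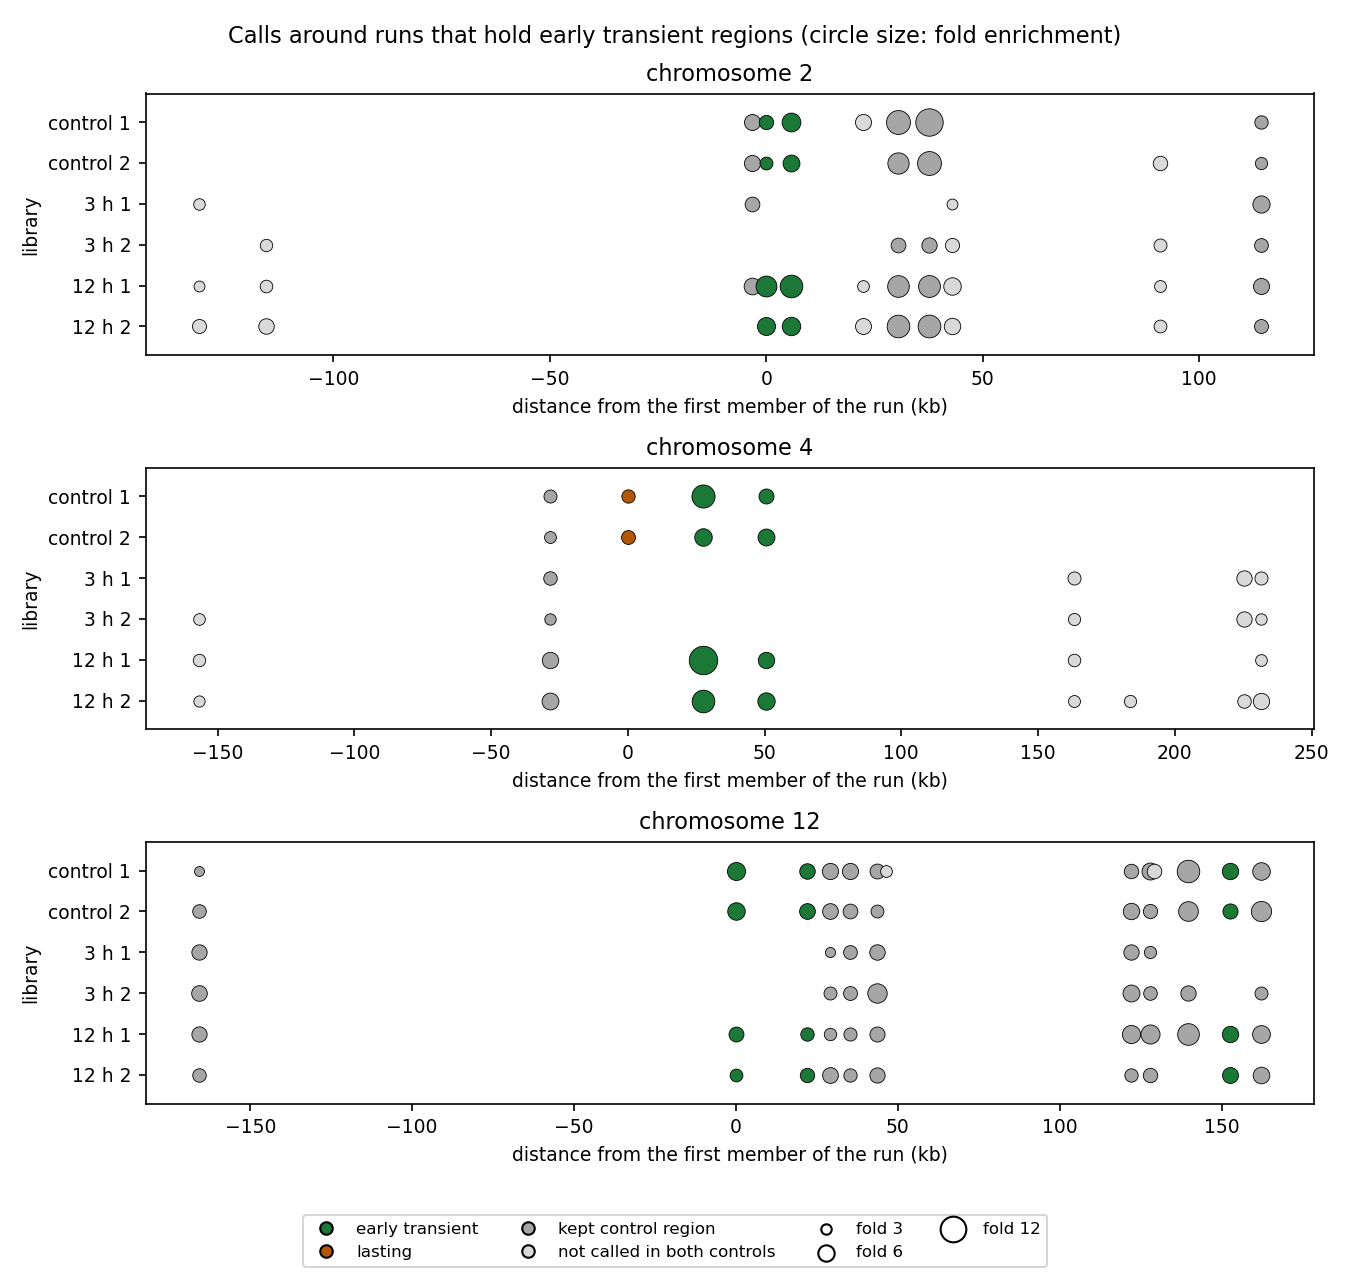
Calls in each library within 200 kb of the 3 runs of members that hold early transient regions, against distance from the first member of the run (kb); circle size is fold enrichment and shade is the class of region. The early transient regions are absent from both 3 h rows and present in both control and both 12 h rows, and of the 4 kept regions on chromosome 2, 2 were called in 3 h replicate 1 and 3 in replicate 2.

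Many early transient regions stood on a low local background. In 5 of the 28 regions (17.9%) both control libraries had a local background within 5% of the genome background, against 2.84% of all control regions. The median local background over the class was 1.26 times the genome background, against 1.71 over all control regions. Their median control width was 497 bp, against 685 bp, and the median distance between the 2 control summits was 84 bp, against 121 bp. These are medians over regions, which share libraries and are not replicates.

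The 3 h libraries also differed from the others in the organellar part of the lists. Median local background at chloroplast peaks was 3.19 and 3.37 times the genome background at 3 h, 8.06 and 7.51 in control and 8.09 and 8.23 at 12 h. At mitochondrial peaks it was 1.61 and 1.77 at 3 h, 4.26 and 3.74 in control, and 3.31 and 1.80 at 12 h. The chloroplast values were thus low at the time when the early transient calls were missing, and their part in those calls was not tested. Similarity of these regions to organellar DNA was not analysed here. At the early transient regions, organellar fragments placed on a nuclear copy cannot be told apart from nuclear H3K9ac, and the folds given for the class carry that limit.

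Late loss was the largest class and was not made up of weak peaks alone. Over its 105 regions the control folds had medians of 3.72 and 3.82, with highest values of 6.26 and 7.05. At 3 h the medians were 3.62 and 3.52, with highest values of 7.20 and 6.74. In contrast to the regions called in all 6 lists, whose medians went from 3.86 and 4.06 in control to 4.44 and 4.42 at 3 h, the late regions had no higher median at 3 h.

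The 3 h libraries placed many late regions below control while the call was still present. Summit coverage divided by the genome background was lower in both 3 h libraries than in both controls at 39 of 105 late regions (37.1%), against a background of 8.2% among the regions called in all 6 lists. It was higher in both 3 h libraries at 19 (18.1%), against 51.9%, and the groups overlapped at the other 47. The mean log2 fold was higher at 3 h than in control at 38 of the 105 late regions (36.2%), with a median difference of −0.10, against 71.2% and 0.14 among regions called in all lists. The choice of regions that were later uncalled bears on these shares, so they are not tested.

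Late regions were also called narrower at 3 h relative to regions called in every list. Their width at 3 h was 0.98 times the control width, against 1.23 times for the regions called in all 6 lists. Control width itself was not small, with a median of 727 bp against 685 bp over all control regions. More than a single summit was listed for 24.8% of late regions in a control library, against 22.2% of all control regions.

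The late region with the highest lower control fold was chr3:25219746-25221130. It was covered by 30 and 33 fragments in control and by 20 and 23 at 3 h, with folds of 6.26 and 7.05 and then 5.66 and 5.02, so both 3 h folds lay below both control folds. At 12 h a coverage of at most 37.3% of the scaled control would have gone uncalled. On chromosome 5, chr5:7250183-7251363 went from folds of 5.37 and 5.45 to 4.37 and 5.58 at 3 h, which overlap. On the same chromosome, chr5:7415292-7416535 was covered by 32 and 33 fragments in control and by 20 and 23 at 3 h, with folds of 5.30 and 6.09 and then 5.46 and 5.47, inside the control range.

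Similar sizes were found at the other leading late regions. On chromosome 12, chr12:25445055-25446306 had folds of 5.27 and 6.73 in control and of 4.96 and 4.36 at 3 h, both lower. On the same chromosome, chr12:5184694-5185768 had 4.93 and 6.23 in control and 4.48 and 4.22 at 3 h, both lower. At chr6:29002535-29003709 the fold went from 4.95 and 5.47 to 4.19 and 3.38, both lower. The remaining leading regions overlapped with control at 3 h: chr7:22426906-22428581 had 5.04 and 6.67 and then 5.48 and 5.47, and chr9:2783228-2783792 had 5.88 and 4.99 and then 5.12 and 3.92. None of the 8 had a 12 h call.

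Lasting loss leaned to control peaks of low fold. The control folds of its 46 regions ran from 2.33 to 5.06 in replicate 1 and from 2.34 to 5.37 in replicate 2, with medians of 3.45 and 3.52. By the lower control fold, 23, 12, 10 and 1 of the 46 lay in the 4 quartiles of control regions, from weakest to strongest. Median summit coverage was 18 and 16.5 fragments in control, against 18 and 17 over all control regions. The median of the lower −log10 q was 3.05, against 3.84 over all control regions. The highest lower control fold of a lasting region was 4.37, against 6.66 among early transient and 6.26 among late regions.

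The leading lasting regions had control coverage between 11 and 29 fragments. The region with the highest lower fold, chr4:9105646-9106062, had folds of 4.37 and 4.66 at a coverage of 14 and 13 fragments, and it lay 26891 bp from the early transient region chr4:9132954-9133590. At chr7:896707-897650 the folds were 5.06 and 4.05, and at chr3:6917941-6918715 they were 4.09 and 4.47. At chr9:7008173-7009425 coverage was higher, 29 and 25 fragments, on a local background 2.19 and 2.84 times the genome background. The rest of the leading set, chr12:19788651-19789488, chr8:5848883-5849601, chr11:81533-82281 and chr8:1036030-1036739, had control folds between 3.82 and 4.76.

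**Figure D3:**
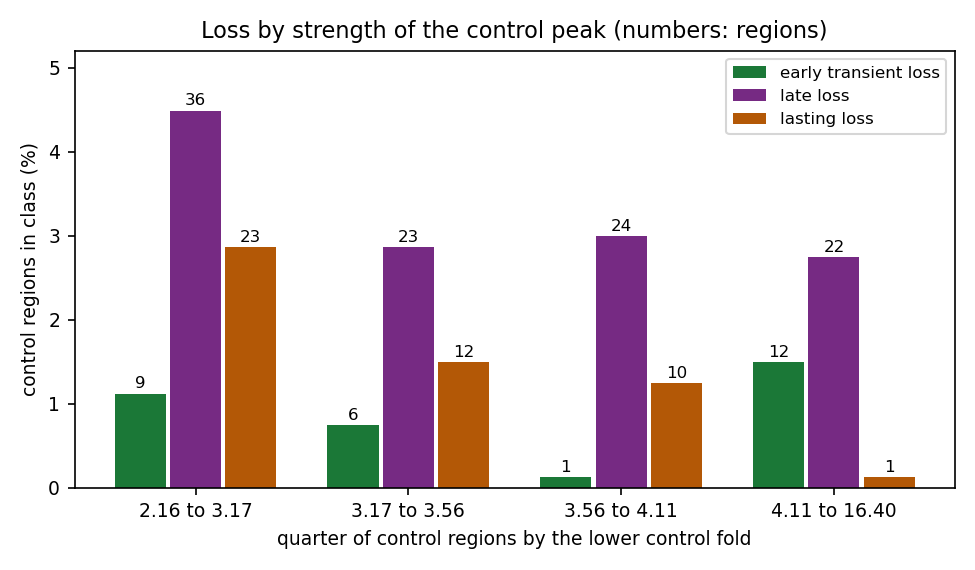
Share of control regions in each class of loss (%), by quartile of the 3208 control regions ordered by the lower of the 2 control folds; numbers above bars are regions. Lasting loss falls from 23 regions in the weakest quartile to 1 in the strongest, while early transient loss has 9 regions in the weakest quartile and 12 in the strongest.

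Loss of a call followed the strength of the control peak unevenly between classes. Missing at 3 h were 4.99% of the weakest quartile, 3.24% and 1.62% of the middle quartiles and 1.87% of the strongest. Missing at 12 h were 9.35%, 6.11%, 5.74% and 3.49%. Late loss took 36, 23, 24 and 22 regions from the 4 quartiles in the same order. The late class was thus spread over all quartiles, and the lasting class had 1 region in the strongest.

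How much acetylation a missing call allows depends on depth. For each member the control coverage was scaled by the ratio of genome backgrounds. The scaled value is that of a region whose coverage over genome background stayed at the control level. Regions called in all 6 lists did not stay there. Their median coverage over genome background was 7.40 and 8.98 in control, 10.4 in both 3 h libraries, and 13.4 and 14.0 at 12 h. A region that rose with them would have more coverage than the scaled value. The highest coverage that would go uncalled at the control's relative background was then read from the lowest −log10 p of that list. Over the 94 regions missing at 3 h this limit was a median of 62.5% of the scaled control coverage, with a lowest value of 28.1% and a highest of 85.4%. Over the 198 missing at 12 h it was a median of 69.5%, from 37.3% to 99.5%. The limit assumes that local background kept its relation to genome background, and a call also needs a minimum length. Under these assumptions a fall to that level was enough to lose a call, and a complete loss of the mark is not shown at any region. The first assumption did not hold everywhere. Among regions called in all 6 lists, median local background over genome background was 1.67 and 1.77 in control. The 3 h libraries had 1.93 and 1.94, and those of 12 h had 2.18 and 2.26. Near early transient regions, it fell by 3 h at several kept regions and rose at another. At chr12:20533845-20535544 the control values were 2.30 and 2.23, against 1.07 and 1.14 at 3 h. At chr2:14360960-14362307 they were 1.27 and 1.58, against 2.14 and 1.91.

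**Figure D4:**
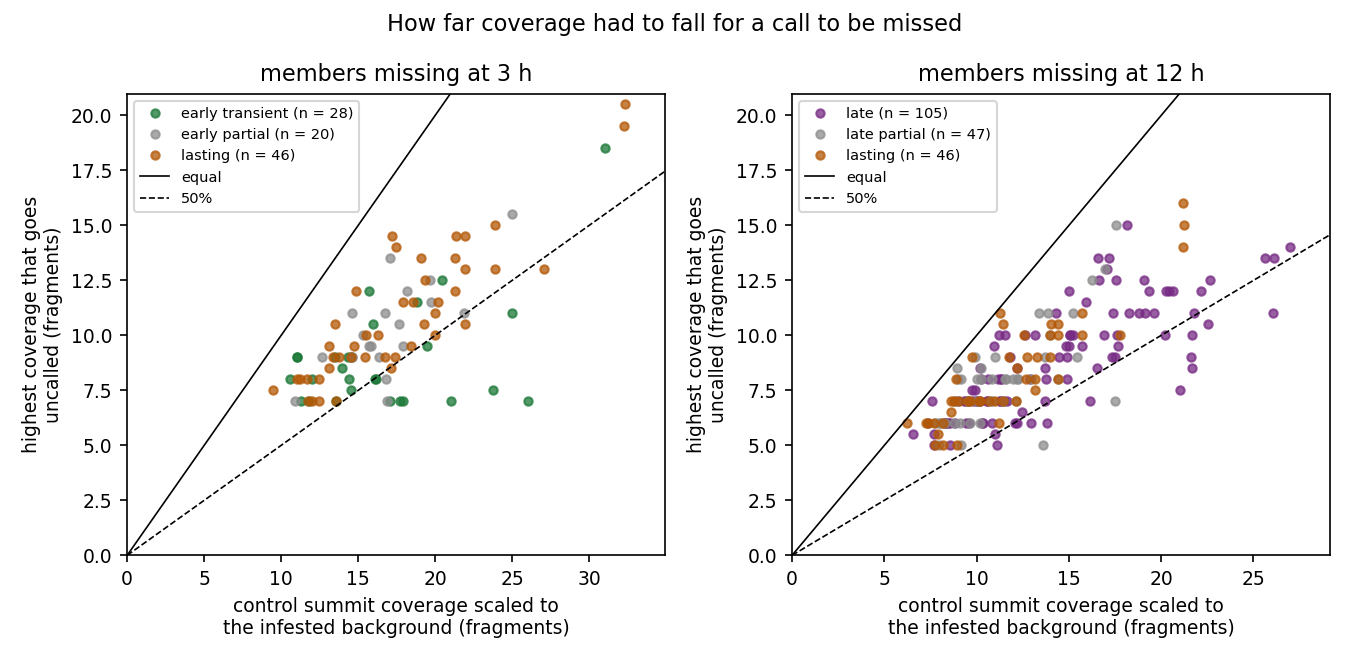
Highest summit coverage that would go uncalled in the infested libraries (fragments, mean of 2 libraries) against control coverage scaled to the infested background (fragments), for members missing at 3 h and at 12 h. Points under the dashed line had to fall below 50% of the scaled control coverage. At 3 h the lowest limit as a share of the scaled coverage is that of an early transient region. At 12 h no lasting region lies under the dashed line.

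Counting error alone was wide at this depth. The limit lay below the 95% Poisson range of the scaled coverage in both 3 h libraries for 22 of the 94 regions missing at 3 h, among them 9 of 28 early transient and 9 of 46 lasting regions. In both 12 h libraries it did so for 18 of the 198 missing at 12 h, among them 16 of 105 late regions and 0 of 46 lasting regions. Over all 3208 control regions the limit met this condition for 40.6% at 3 h and 16.8% at 12 h. For each of the 46 lasting regions, the limit was thus not below the range of the scaled coverage in at least 1 of the 2 libraries at 12 h. The scaled coverage holds a region at its control level, and a fall from a higher level was not tested. The range covers counting error in the infested library only. Counting error in the control coverage was left out, so the range is too narrow.

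Another called region often lay close to a member. Each 3 h list called another region within 5 kb for 26.6% of the regions missing at 3 h, against 13.6% of all control regions. The lists need not have called the same neighbour. Within the 28 early transient regions it was 4 (14.3%), and within the 46 lasting regions 13 (28.3%). Late regions, which were called at 3 h, had a similar share by this 3 h measure, 28 of 105 (26.7%). Each 12 h list called another region within 5 kb for 23.2% of the regions missing at 12 h, against 12.9% of all control regions. Whether these neighbours belong to the same gene was not analysed here.

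Few members lay in runs. Members within 50 kb of each other formed 18 runs holding 39 regions, and the largest run had 4, on chromosome 9 between 20601412 and 20694966. That run held a region missing at 3 h, chr9:20601412-20602627, and 3 regions that were missing at 12 h and called in 1 of the 3 h lists. Of the 246 members 15.9% had another member within 50 kb, against 9.54% of all control regions. Closely spaced late pairs were chr2:5468708-5470556 with chr2:5473773-5475237, and chr2:13638337-13639122 with chr2:13640048-13640788.

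The chromosomes lost unequal shares of their control regions. At 3 h chromosome 6 had 1 of 266 missing (0.376%) and chromosome 8 had 12 of 223 (5.38%). At 12 h the share ran from 4.38% on chromosome 4 (12 of 274) to 9.39% on chromosome 9 (17 of 181). Early transient regions were 5 on chromosome 4 (1.82% of its control regions), 4 on chromosome 8 (1.79%), 3 each on chromosomes 11 and 12 (1.62%) and 0 on chromosome 6. Every chromosome held members, from 14 of 266 on chromosome 6 (5.26%) to 22 of 181 on chromosome 9 (12.2%).

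Fold at called regions around members was not used by the rule, and it was the only measure tested. Regions called in all 6 lists with a midpoint within 20 kb of a region missing at 3 h numbered 41. Their median log2 fold, less the median of all such regions in the same library, was 0.028 and 0.060 in control and −0.073 and 0.019 at 3 h. The 3 h mean was −0.027 ± 0.065 (SD, n = 2) and the control mean 0.044 ± 0.023 (SD, n = 2), a difference of −0.071. The exact permutation test, two-sided, gave p = 0.333 (adjusted p = 0.333 over 2 tests), the smallest p that 2 libraries against 2 allow.

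Around the regions missing at 12 h, 71 neighbours had offsets of −0.037 and 0.019 in control and of −0.067 and −0.141 at 12 h. The 12 h mean was −0.104 ± 0.052 (SD, n = 2) and the control mean −0.0093 ± 0.039 (SD, n = 2), a difference of −0.095. Both 12 h values lay below both control values, and the exact permutation test, two-sided, again gave the smallest possible p, 0.333 (adjusted p = 0.333). Neither test could reach 0.05. On the linear scale the median folds of these 71 neighbours were 3.76 and 4.11 in control and 4.58 and 4.31 at 12 h, so the neighbours were above control in fold and behind the other regions called in all lists.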

How the data were processed

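H3K9ac CUT&Tag peak lists of 2 control, 2 infested 3 h and 2 infested 12 h leaf libraries were used. The submitters' processing notes name MACS2 2.1.0 as a tool, with Bowtie 1.1.2, Trimmomatic 0.33 and bcl2fastq 2.17, and IRGSP-1.0 as the build. How these were set, how duplicates were treated and whether an input was used is not given in the sources used here. For each peak the authors deposited a fold enrichment (a ratio to local background), a −log10 p, a −log10 q and a score, and they called peaks per library. The deposited score was not used further. The smallest deposited −log10 q was 1.30, a q threshold of 0.05. Lists held 5150 to 14010 peaks.

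Summit coverage and local background were solved from fold and −log10 p, with whole coverage for 100% of peaks in every list (tolerance 0.001), and tested on simulated data. Where a merged region held several peaks of a list, the peak with the highest −log10 p gave its fold. A missing call means only that a region did not pass the threshold. The named regions are the 8 of each class with the highest lower control fold; the members and these lists were chosen with earlier results of these data known. Coverage limits, runs and distances were added after the data were seen. The planned gene lists, base composition, repeats and organellar similarity need a genome of this build and are not given. Python 3.11.15, pandas 2.3.3, numpy 2.4.6 and scipy 1.17.1 were used.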

Additional observations from a re-analysis of the deposited data

Results flagged for a closer look

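Peaks on unplaced scaffolds, which no comparison above uses, were more numerous in infested lists than in control lists. The mean was 10.5 at 3 h and 9.5 at 12 h, against 6.5 in control, with no overlap between infested and control libraries. As a share of all listed peaks the order was the reverse, at 0.117% and 0.124% in control and 0.0740% to 0.0852% in the infested lists. The difference was not tested. Groups of 2 libraries are too small to look for a library far from the others.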

How the results depend on the processing

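The size of every class depended on how a call was defined. With −log10 q of at least 5 in every list, control regions fell from 3208 to 996. Members were then 18.7% of them against 7.67%, early transient 2.21% against 0.873%, late 6.63% (66 regions) against 3.27%, and lasting 4.12% against 1.43%. With that threshold in control alone, 997 control regions held 52 members (5.22%), 9 early transient (0.903%), 36 late (3.61%) and 3 lasting (0.301%). With lists of equal length 3020 control regions held 918 members (30.4%), 107 early transient and 325 lasting; shortening takes the weaker calls out of the longer infested lists. When 50% of the control region had to be covered, there were 393 members (12.4%), 47 early transient and 95 lasting. Merging within 500 bp kept all 4 counts within 1.5 times (242 members). Leaving out 1 library in turn gave 291 to 748 members, 34 to 118 early transient, 127 to 187 late and 52 to 331 lasting regions. Around regions missing at 3 h the neighbour difference was negative in all settings run, from −0.12 to −0.025 with 1 library left out and −0.097 and −0.053 at 10 and 50 kb. Around regions missing at 12 h it was −0.13 to −0.058, and −0.083 and −0.079. With the replicate number as a block (replicate block, paired sign-flip) the differences were −0.071 and −0.095, at the smallest p of that test, 0.5. Libraries with the same number did not deviate together (r from −0.034 to 0.0055 over 2657 regions), so the numbers are not taken to pair them. Leaving out regions similar to the organellar genomes was not run, as no genome was used. No sequencing batch is named in the labels.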

Other observations

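Regions called in all 6 lists within 20 kb of a member were also described by class, with no test. Around early transient regions, 10 neighbours had log2 offsets from the library median of 0.068 and 0.10 in the control libraries. Their offsets were −0.028 and −0.030 in the 3 h libraries and −0.11 and 0.057 in those of 12 h. Around late regions, 45 neighbours had −0.062 and −0.017 in control and −0.059 and −0.16 at 12 h. Around lasting regions, 20 neighbours lay below the other regions in every library, from −0.23 in 12 h replicate 2 to −0.084 in control replicate 1. Median folds of these 20 neighbours ran from 3.64 in control replicate 1 to 4.39 in 12 h replicate 1.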
